A study of Mus musculus with 8 samples.

Results

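Hepatocytes make most of the proteins that circulate in blood, and the 10 genes described here are markers of that output: Alb, Apoa1, Apoa2, Apob, Apoh, Ttr, Ahsg, Fgb, Hpx and Fabp1. They were taken by name from 22180 mouse genes measured on 8 Affymetrix arrays of hepatic macrophage RNA, and each of the 10 lay on a single array row with exactly 1 gene symbol, so no choice between rows was needed. Their levels describe the hepatocyte transcripts found in each macrophage preparation and how the 2 treatments compared. Mice of one treatment received 50 µg of recombinant CPS1 (rCPS1), the mitochondrial enzyme that starts the urea cycle. Mice of the other received 25 µg of rTF, recombinant transferrin, a plasma protein that carries iron. Both proteins were given through the tail vein 12 h before 350 mg/kg of acetaminophen, a drug that kills hepatocytes at high doses. Every array thus came from acetaminophen treatment, and no array without the drug was included. The degree of liver injury was not measured here. All mice were FVB/N males aged 8 weeks, with 4 arrays for rCPS1 and 4 for rTF. Every title reads Mouse1 with a replicate number, so separate mice are not established, and each p-value reflects array-to-array spread that may be technical. The protein and its amount changed together.

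Albumin carries fatty acids, hormones and drugs and sets the osmotic pressure of plasma, apolipoproteins package lipid for transport, and fibrinogen, fetuin and hemopexin serve clotting, mineral handling and heme clearance. These proteins enter the secretory pathway of the hepatocyte and leave the cell. Fabp1, liver fatty acid-binding protein, is the exception among the 10: it binds fatty acids inside the cytosol, so the name plasma protein gene fits the other 9 by function and Fabp1 only as a hepatocyte marker. In healthy liver these transcripts are abundant in hepatocytes, whereas macrophages and endothelial cells express little of most of them.

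The values are log2 levels after RMA (robust multi-array average), so a difference of 1 is a doubling, and levels of different genes are not compared because probes differ in brightness. All 10 members lay above the median of all array rows (3.63) on every array, and 7 lay above the upper quartile (5.96) on every array. The array medians ran from 3.55 to 3.68. None of the 8 Kupffer cell markers (Clec4f, Vsig4, Timd4, Cd5l, Marco, Adgre1, Csf1r and Cd68) had a mean below the median row level, and neither did any of the 8 sinusoidal endothelial markers. The Kupffer cell marker mean lay between 9.71 and 10.44 with rCPS1 and between 9.62 and 10.20 with rTF, and the endothelial mean between 11.35 and 11.49 with rCPS1 and between 11.26 and 11.54 with rTF. Markers of macrophages, endothelial cells and hepatocytes were thus all above the median row level, and which cells the hepatocyte transcripts came from was not tested. In such bulk RNA, fewer cells of a type and less RNA per cell cannot be told apart. The number of arrays limits the precision.

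No member differed between rCPS1 and rTF beyond the spread of the arrays. In limma, 0 of the 10 members and 0 of all 22180 genes (0.0%) had an adjusted p under 0.05. At an unadjusted p under 0.05 there were 0 members, against 1035 of all genes (4.67%), of which 416 were higher (1.88% of all) and 619 lower (2.79%) with rCPS1. The smallest unadjusted p of a member was 0.173, for Fgb. The log2 difference, rCPS1 minus rTF, was below 0 for 9 members and above 0 for Fabp1 alone, where 54.4% of all genes were below 0. The members' median difference was -0.09, beside -0.02 over all genes. The groups overlapped for all 10 members, where 2.92% of all genes had groups that did not. Standard errors of the members' differences ran from 0.17 to 0.46, against a median of 0.15 over all genes.

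**Figure D1:**
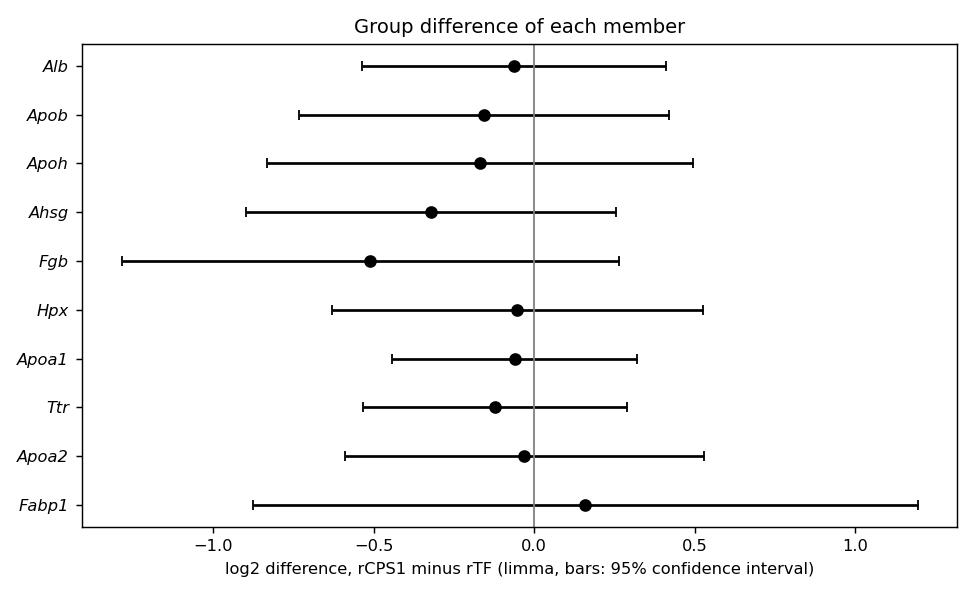
Log2 difference, rCPS1 minus rTF, of each of the 10 members (points) with the 95% confidence interval from limma (bars, n = 4 arrays a group). Every interval spans 0; the estimates run from -0.51 for Fgb to 0.16 for Fabp1.

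Among the carriers, Alb encodes albumin, the most abundant protein of plasma. Its level (probe set 17438886) was 11.34, 11.75, 11.33 and 11.02 in rCPS1 replicates 1 to 4, against 11.05, 11.44, 11.96 and 11.25 in rTF replicates 1 to 4. The highest array was rTF replicate 3 and the lowest rCPS1 replicate 4, and the groups overlapped across most of their range. The difference was -0.06 ± 0.21 (SE), with a 95% interval from -0.54 to 0.41 and a limma adjusted p of 0.988. Hpx encodes hemopexin, which binds free heme. It lay at 8.83, 9.61, 9.37 and 8.76 in the rCPS1 arrays, against 8.99, 8.90, 9.90 and 8.99 in the rTF arrays, a difference of -0.05 ± 0.26. Here again rTF replicate 3 stood highest, followed by rCPS1 replicate 2, and the other rTF arrays lay between 8.90 and 8.99.

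Ttr encodes transthyretin, which carries thyroid hormone and the retinol-binding protein. It averaged 8.54 ± 0.31 with rCPS1 and 8.66 ± 0.28 with rTF (SD, n = 4 each), a difference of -0.12 ± 0.18 (SE). Its range over the 8 arrays, 0.69, was the narrowest of the 10 members, close to the median range of 0.66 over all genes. Ahsg encodes fetuin-A, which keeps calcium phosphate in solution. It lay at 8.97, 9.46, 8.98 and 8.55 in the rCPS1 arrays, against 9.12, 9.26, 10.02 and 8.85 in the rTF arrays. The difference of -0.32 ± 0.26 was the second largest among the members and did not pass (limma adjusted p = 0.980).

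Of the 4 apolipoprotein genes, Apob encodes the structural protein of very low density lipoproteins. It lay at 6.75, 7.51, 6.96 and 6.68 in the rCPS1 arrays, against 6.91, 6.90, 7.87 and 6.84 in the rTF arrays. The 3 other rTF arrays were nearly level, and rTF replicate 3 alone stood above them. The difference was -0.16 ± 0.26. Apoh, beta-2 glycoprotein I, binds phospholipid. It ranged from 5.81 to 6.97 with rCPS1 and from 6.06 to 7.29 with rTF, a difference of -0.17 ± 0.30. Apoa1, the main protein of high density lipoprotein, ranged from 5.83 to 6.45 with rCPS1 and from 6.04 to 6.63 with rTF, a difference of -0.06 ± 0.17. Apoa2, the second high density lipoprotein protein, departed from this order of arrays. Its level was 6.74, 5.82, 5.74 and 5.62 in rCPS1 replicates 1 to 4, against 6.46, 5.76, 6.01 and 5.81 in rTF replicates 1 to 4. The high arrays were replicate 1 of each treatment, not rTF replicate 3, and the group difference was -0.03 ± 0.25.

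Fgb encodes the beta chain of fibrinogen, the precursor of fibrin, and had the largest estimated difference of the members. It lay at 8.30, 8.95, 8.61 and 7.71 in the rCPS1 arrays, against 8.62, 8.32, 9.89 and 8.78 in the rTF arrays. The mean was 8.39 ± 0.53 with rCPS1 and 8.91 ± 0.68 with rTF (SD, n = 4 each), a difference of -0.51 ± 0.35 (SE, limma adjusted p = 0.980). Without rTF replicate 3 the difference was -0.18. The other fibrinogen chains had estimates of similar size: Fga, the alpha chain, differed by -0.60 ± 0.43 and Fgg, the gamma chain, by -0.55 ± 0.42. Fga was at 6.20, 6.81, 5.93 and 5.46 in the rCPS1 arrays, against 6.44, 5.81, 7.99 and 6.56 in the rTF arrays, so all 3 chains were highest in rTF replicate 3 and lowest in rCPS1 replicate 4. None of the 3 passed.

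Fabp1 differed from the other members in its order of arrays. Its level was 8.50, 6.65, 7.78 and 7.22 in rCPS1 replicates 1 to 4, against 8.17, 7.84, 6.19 and 7.32 in rTF replicates 1 to 4. The array that was highest for Alb, rTF replicate 3, was the lowest for Fabp1, and rCPS1 replicate 2, second highest for Alb, was second lowest for Fabp1. Fabp1 spanned 2.31 log2 units over the arrays, 4.98-fold, the widest range of the 10 members. Its group difference was 0.16 ± 0.46 (SE), with a 95% interval from -0.88 to 1.19, and turned to -0.24 without rTF replicate 3 and to -0.16 without rCPS1 replicate 1.

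**Figure D2:**
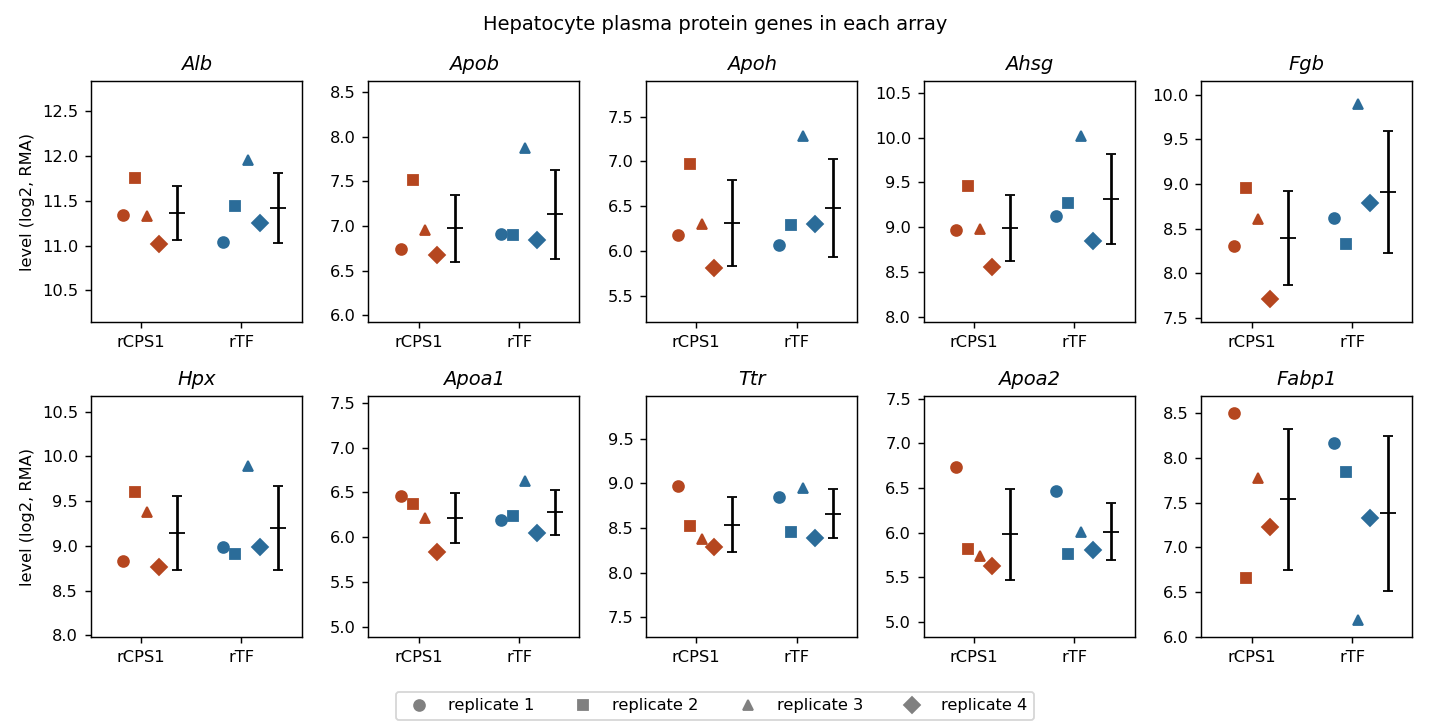
Log2 RMA level of each member (vertical axes, each spanning the same number of log2 units) in the 4 rCPS1 arrays (left) and the 4 rTF arrays (right); marker shapes give the replicate number, and the black bar is the mean ± SD. In 7 panels the highest point is rTF replicate 3, whereas Fabp1 has its lowest point there at 6.19.

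The mean over the 10 members summarises their level on each array, not that of hepatocyte transcripts in general. The mean of the list of intracellular hepatocyte enzymes and transporters had r = -0.16 with it. The member mean was 8.10, 8.16, 7.97 and 7.55 in rCPS1 replicates 1 to 4, against 8.04, 7.94, 8.47 and 7.86 in rTF replicates 1 to 4. The group means were 7.94 ± 0.28 with rCPS1 and 8.08 ± 0.27 with rTF (SD, n = 4 each), a difference of -0.13, smaller than the SD of either group. Of the 10 members, 9 were lowest in rCPS1 replicate 4 and 7 were highest in rTF replicate 3. The neutrophil marker mean had the same extremes, 4.58 in rCPS1 replicate 4 and 6.71 in rTF replicate 3, and its part in the members' order was not tested. The difference of the means was -0.00086 without rCPS1 replicate 4 and -0.0025 without rTF replicate 3, and the wider mean over the members and 122 further hepatocyte genes gave 0.026.

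The members did not move as a block from array to array. Alb, Apob, Apoh, Ahsg, Fgb and Hpx, grouped after their values were seen, had pairwise Pearson r between 0.81 and 0.97 over the 8 arrays, and their mean spanned 1.40 log2 units (2.64-fold) between rCPS1 replicate 4 (8.09) and rTF replicate 3 (9.49). Apoa1 followed them with r between 0.67 and 0.85. Apoa2 did not (r between -0.18 and 0.09), and was most like Ttr instead (r = 0.85, Spearman rho = 0.95). Fabp1 had negative r with each of the 6, from -0.80 with Apob to -0.58 with Ahsg, but r was -0.22 with Apoa1, 0.11 with Ttr and 0.55 with Apoa2. Of all 45 pairs of members, 21 had an adjusted p under 0.05 for r and 5 for rho, by two-sided exact permutation tests adjusted over the 45 pairs. Removing the group means left the r of the 6 genes between 0.85 and 0.97, so the likeness was present within treatments.

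These relations rest in large part on few arrays. Leaving out the 2 arrays farthest from the median of the first gene, which always included rTF replicate 3 for the 6 genes, left r between 0.26 and 0.84 among them and between -0.30 and 0.65 for Apoa1 with them. For Alb and Apoh r was 0.97 with all arrays (rho = 0.81, adjusted exact permutation p = 0.00781 for r and 0.0891 for rho) and 0.84 without rCPS1 replicate 2 and rTF replicate 3. For Alb and Fabp1 r was -0.69 (rho = -0.36, adjusted exact permutation p = 0.104 for r and 0.520 for rho), and 0.30 without those 2 arrays, so that relation rests on them. Without the same 2 arrays r with Fabp1 was 0.21 for Apob, 0.25 for Apoh and 0.02 for Hpx, so these negative relations rest on them too, and Apob was the only one of the 6 whose r with Fabp1 had passed (adjusted exact permutation p = 0.0394 for r and 0.377 for rho). For Ahsg and Fgb, where the farthest arrays were rCPS1 replicate 4 and rTF replicate 3, r with Fabp1 was -0.49 and -0.85 without them. These values keep rCPS1 replicate 2, which was second highest for Ahsg and Fgb and second lowest for Fabp1. They therefore cannot show whether the negative r of Ahsg and Fgb with Fabp1 rests on rCPS1 replicate 2 and rTF replicate 3. Apoa2 and Ttr kept r = 0.94 without replicate 1 of each treatment (adjusted exact permutation p = 0.0206 for r and 0.0251 for rho with all arrays). Without the same 2 arrays Apoa2 had r of 0.88 with Apob, 0.92 with Apoh, 0.91 with Ahsg, 0.98 with Fgb and 0.82 with Hpx, so its departure from those genes rests on replicate 1 of each treatment. The r of Apoa2 with Fabp1 was 0.55 with all arrays (adjusted exact permutation p = 0.223) and -0.69 without those 2 arrays, so its positive sign rests on them too. Against Alb, the level of Fabp1 shifted by 2.93 log2 units, 7.64-fold, between rCPS1 replicate 1 and rTF replicate 3. The group difference of Fabp1 minus Alb was 0.22, with an SD of 0.94 for rCPS1 and 1.23 for rTF.

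Upstream sequences are shown for Alb and Fgb, both highest in rTF replicate 3 and lowest in rCPS1 replicate 4, and for Fabp1, lowest in rTF replicate 3. They are the 250 bases before the annotated start in RefSeq (GRCm38.p6), written 5′ to 3′ on the gene's strand. Capitals mark matches to GTTAAT or its reverse complement ATTAAC, the half-site of the liver factor HNF1. The Alb window is chr5:90460620-90460869 on the plus strand, the Fgb window chr3:83049864-83050113 on the minus strand and the Fabp1 window chr6:71199629-71199878 on the plus strand.
Alb: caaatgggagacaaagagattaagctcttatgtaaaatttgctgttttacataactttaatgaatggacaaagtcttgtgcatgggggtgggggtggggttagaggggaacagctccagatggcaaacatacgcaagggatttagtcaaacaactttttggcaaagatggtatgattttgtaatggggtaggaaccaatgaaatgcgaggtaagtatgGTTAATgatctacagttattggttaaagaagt
Fgb: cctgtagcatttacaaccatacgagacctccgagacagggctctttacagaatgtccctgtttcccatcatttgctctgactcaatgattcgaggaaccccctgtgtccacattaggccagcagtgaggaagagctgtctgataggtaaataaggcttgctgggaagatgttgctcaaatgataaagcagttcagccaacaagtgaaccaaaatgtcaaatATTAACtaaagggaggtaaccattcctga
Fabp1: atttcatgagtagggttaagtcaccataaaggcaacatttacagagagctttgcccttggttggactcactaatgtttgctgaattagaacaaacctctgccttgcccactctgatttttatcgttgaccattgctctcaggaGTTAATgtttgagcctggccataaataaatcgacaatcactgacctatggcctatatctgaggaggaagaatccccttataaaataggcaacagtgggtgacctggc
Counted from the start, the half-site lay at -32 to -27 in Alb, at -29 to -24 in Fgb (as the reverse complement) and at -107 to -102 in Fabp1. Upstream windows were searched for 9 members on both strands, and 3 of the 9 held it, against 6.43% of all 32851 windows. The forkhead motif TGTTTGC (reverse complement GCAAACA) was found in 5 of the 9 (Ahsg, Alb, Apoa1, Apob and Fabp1), against 4.3% of all windows, and overlapped no half-site. The TATA box motif TATAAA (reverse complement TTTATA) was found in 3 of the 9, against 12.4% of all windows. These matches lay at -212 to -207 in Apoa2, at -60 to -55 in Apob and at -30 to -25 in Fabp1. The motifs were chosen after matches had been seen, and a match is a description of letters, not a site in use. Alb and Fabp1 each held both the half-site and the forkhead motif.

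Further secreted proteins of the liver gave 69 measured genes in 6 lists, and none passed in either direction. At an unadjusted p under 0.05, 1 of the 69 was higher and 3 were lower with rCPS1, near the 1.88% and 2.79% of all genes. The protease inhibitor list had 14 of 17 measured genes lower and 3 higher with rCPS1, where 54.4% of all genes were lower, with a median difference of -0.08 that was 0.01 without rTF replicate 3. Clotting factors had 10 of 13 lower and a median of -0.18, which was -0.01 without rTF replicate 3. Acute phase genes had 7 of 10 lower (median -0.11, which was -0.01 without rTF replicate 3 and -0.20 without rTF replicate 2), other carriers 6 of 9 lower (-0.04), complement genes 5 of 10 lower (0.006) and other apolipoprotein and lipoprotein assembly genes 4 of 10 lower (0.06). The median over all genes was -0.02.

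Several of these genes repeated the members' order of arrays. Hrg, the histidine-rich glycoprotein of plasma, had r = 0.94 with the member mean over the 8 arrays, Ambp, the precursor of alpha-1-microglobulin, 0.92, the hyaluronan-binding inhibitor gene Itih2 0.92, Serpina1a, an alpha-1-antitrypsin gene, 0.92, and Hp, haptoglobin, 0.87. Ambp was at 6.16, 6.37, 6.05 and 5.65 in the rCPS1 arrays, against 5.96, 5.81, 7.03 and 5.88 in the rTF arrays, so its highest, second highest and lowest arrays were those of Apob. Serpina1a has near-identical relatives that the array may not separate, and its values are uncertain. Serpina1d of the same family had r = -0.66, but lay at 1.27 to 2.04, under the median row level. Serpina1c, at 9.30 to 9.60, had r = 0.60, and Serpina1e -0.12. Among the other carriers Igfals had r = -0.31, Afm -0.16 and Serpina7 -0.13, all with mean levels under the median row level. Among acute phase genes, Orm1, an orosomucoid gene, and Crp, C-reactive protein, each had r = 0.74 with the member mean. Orm3, a dim row at 2.14 to 3.83 over the arrays, had -0.14. Among complement genes, C9, a component of the membrane attack complex, had r = 0.76 and Masp1, a protease of the lectin pathway, -0.67. Apoe, an apolipoprotein that macrophages make as well, spanned only 7.73 to 8.06 over all arrays, with r = 0.20 to the member mean and a group difference of -0.05 ± 0.11.

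A few liver-made protein genes had an unadjusted p under 0.05 without passing. F7, clotting factor VII, was at 5.38, 6.01, 5.76 and 5.69 in the rCPS1 arrays, against 6.14, 6.47, 6.04 and 6.29 in the rTF arrays, a difference of -0.52 ± 0.15 (SE, limma adjusted p = 0.980). It was the only gene of the 69 whose groups did not overlap, where 2.92% of all genes had groups that did not. F7 did not follow the members (r = 0.07 with their mean). F10, clotting factor X, differed by -0.40 ± 0.17, Apoc2, the activator of lipoprotein lipase, by -0.39 ± 0.17 and Mttp, which loads lipid onto apolipoprotein B, by 0.42 ± 0.18. Markers of monocytes and neutrophils lay lower with rCPS1, without passing. The neutrophil marker mean lay between 4.58 and 5.58 with rCPS1 and between 5.89 and 6.71 with rTF, and the monocyte marker mean between 7.98 and 8.25 with rCPS1 and between 8.63 and 9.03 with rTF. In the neutrophil list 8 of 8 genes were lower, 7 of them at an unadjusted p under 0.05, and in the monocyte list 6 of 6 were lower, 5 of them at an unadjusted p under 0.05. Of all genes, 54.4% were lower, and 2.79% were lower at an unadjusted p under 0.05. The part of monocytes and neutrophils in the differences of F7, F10 and Apoc2 was not tested.

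Most genes on the 2 lists of intracellular hepatocyte genes were nearer to Fabp1 than to Alb in their order of arrays. In the list of intracellular enzymes and transporters 18 of 19 measured genes were higher with rCPS1, where 45.6% of all genes were, with a median difference of 0.34. In the list of hepatocyte transcription factors 13 of 14 were higher, with a median of 0.23 that was 0.16 without rCPS1 replicate 1 and 0.37 without either rTF replicate 1 or rCPS1 replicate 4. None passed, and 2 of the 33, beside 4.67% of all genes, had an unadjusted p under 0.05: Cyp7a1, the rate-limiting enzyme of bile acid synthesis (0.58 ± 0.21), and Slc10a1, the bile acid uptake carrier (0.31 ± 0.14). The enzyme median was 0.10 without rTF replicate 3, while the count of higher genes stayed between 16 and 19 of 19 with any 1 array left out, and that of the transcription factors between 11 and 14 of 14. The arrays are the same for every gene, so these counts are not independent observations.

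Adh1, alcohol dehydrogenase, had the lowest r with the member mean in the enzyme list (-0.63). It lay at 9.17, 7.53, 8.65 and 8.50 in rCPS1 replicates 1 to 4, against 8.37, 8.33, 6.85 and 8.49 in rTF replicates 1 to 4. Its low arrays, rTF replicate 3 and rCPS1 replicate 2, were the high arrays of Alb, and its difference was 0.45 ± 0.41. The enzyme list mean was also lowest in rTF replicate 3 (5.75) and highest in rCPS1 replicate 1 (6.96). Its next lowest array was rCPS1 replicate 4 (6.12), where Adh1 was not low. Fbp1, a gluconeogenic enzyme gene, had the same pair of lowest and highest arrays as Fabp1, at 4.96 in rTF replicate 3 and 7.34 in rCPS1 replicate 1. Onecut1, a hepatocyte transcription factor gene, was likewise lowest in rTF replicate 3 (3.99) and highest in rCPS1 replicate 1 (6.37), with a difference of 0.73 ± 0.37. Ppara, a fatty acid receptor gene of hepatocytes, differed by 0.37 ± 0.20, and Cebpa, which maintains the hepatocyte program, by -0.09 ± 0.15. Hnf4a, which drives many plasma protein genes, differed by 0.20 ± 0.30 and had r = 0.12 with the member mean. Cps1 mRNA, which encodes the injected enzyme's mouse counterpart, was at 7.77, 7.71, 8.12 and 7.01 in the rCPS1 arrays, against 7.37, 6.92, 7.21 and 7.68 in the rTF arrays, a difference of 0.36 ± 0.24 that did not pass.

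Counted gene by gene, 53 of the 69 genes on the secreted protein lists had a higher r with Alb than with Fabp1, and 5 of the 33 genes on the intracellular lists did, where 46.2% of all genes did. With any 1 array left out the first count stayed between 45 (without rTF replicate 3) and 56, and the count of intracellular genes closer to Fabp1, 28 of 33, between 26 and 30. Leaving out 1 array always keeps rCPS1 replicate 2 or rTF replicate 3, on which the negative r of Alb with Fabp1 rests. These ranges therefore cannot show how far the counts depend on both arrays. This comparison was chosen after the values were seen and is given as a description over 8 arrays, with no test. The split was weaker in the lists of hepatocyte genes by zone. Closer to Fabp1 were 8 of 13 genes of the central vein zone and 4 of 7 of the portal vein zone, where 53.8% of all genes were. Exceptions on the secreted side, picked after their values were seen, included Apoc1 (r = 0.89 with Fabp1), a small apolipoprotein, and Hamp (0.76), the iron hormone hepcidin, and on the intracellular side the transcription factor gene Nr5a2 (r = 0.83 with Alb). The Kupffer cell marker genes, 8 of 8, were also closer to Fabp1 than to Alb, as were the B cell marker genes, 4 of 4. Closer to Alb were the stellate cell marker genes, 7 of 7, the neutrophil marker genes, 7 of 8, and the monocyte marker genes, 5 of 6. The Kupffer cell marker mean was lowest, 9.62, in rTF replicate 3, where Fabp1 was lowest, and the stellate cell mean was highest, 5.73, in that array. Their part in the split was not tested.

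**Figure D3:**
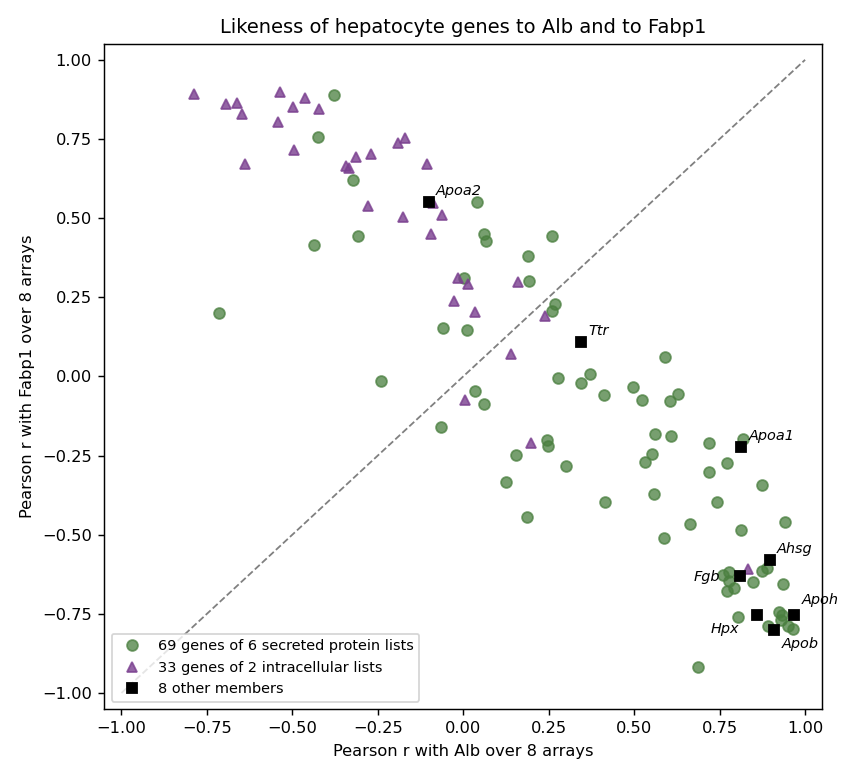
Pearson r over the 8 arrays with Alb (horizontal) and with Fabp1 (vertical) for 69 genes of the 6 secreted protein lists (circles), 33 genes of the 2 intracellular lists (triangles) and the 8 other members (squares); the dashed line marks equal r. Below the line lie 53 of the circles, and above it 28 of the triangles.

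**Figure D4:**
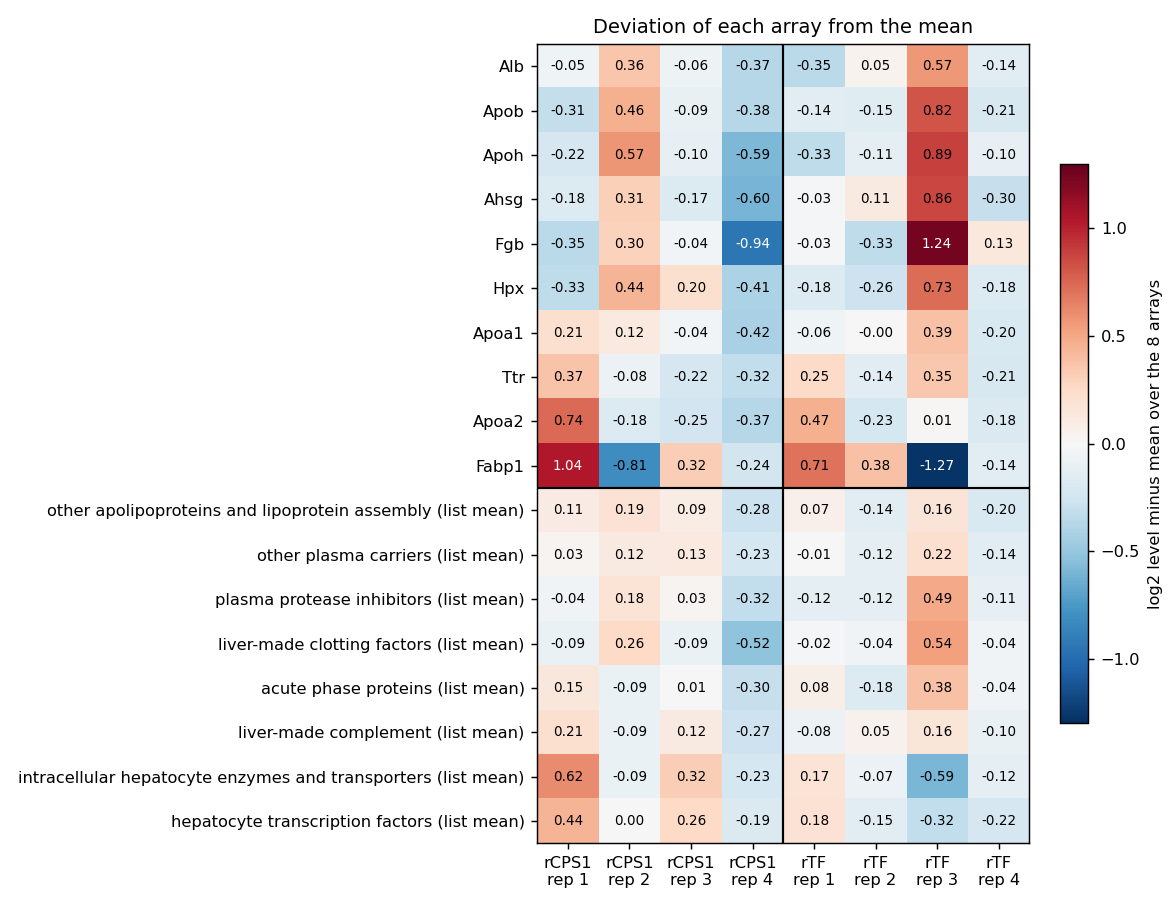
Log2 level of each member and mean level of each accompanying list, as the deviation from its own mean over the 8 arrays (rCPS1 columns left, rTF columns right; red is above the mean, blue below). In rTF replicate 3 Alb, Apob, Apoh, Ahsg, Fgb and Hpx are above their means, whereas Fabp1 and the list of intracellular enzymes are below theirs.

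Outside the hepatocyte lists and leaving out predicted and small RNA genes, the genes most like the member mean over the 8 arrays were Fxyd6 (r = 0.95), Crx (0.95), Kctd16 (0.95), Slc3a1 (0.93), Cd200r1 (0.93) and Cyp2a12 (0.93). Cyp2a12 is a liver cytochrome P450 gene, at 5.68 to 7.48 over the arrays, whereas Crx and Kctd16 stayed below 2.3, under the median row level. With 8 arrays and 22180 genes, high r values arise among unrelated genes, and the list is a description only.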

How the data were processed

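RNA of hepatic macrophages (400 ng, Affymetrix WT Plus labelling, per the labels' protocols) was measured on 8 arrays. The deposited values are log2 levels made by the authors with RMA, and the submitters' processing notes name limma too, without versions. RMA aligns the arrays' distributions, so a shift of nearly all genes would not be seen. Isolation of the cells, probe filters and the array's genome build are not given in the sources used here.

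Of 41345 rows, 23521 carried a single symbol by GEO's platform table, 1814 several and 16010 none; the row of highest mean represented each of 22180 genes. Groups and replicate numbers came from the titles, and no 2 arrays held identical values. Differences, rCPS1 minus rTF, were tested with limma 3.58.1 in R 4.3.3 (lmFit, eBayes, two-sided, no covariate, no filter), with Benjamini-Hochberg adjustment over all genes at 0.05. The procedure was tested on simulated data. Correlations over arrays used Python 3.11.15, with exact permutation p-values over all orders of the 8 arrays. The members and lists were chosen with earlier results of these data known. The text names the members and the genes most like the member mean outside the lists. From each list it names some, not all, of the genes of smallest p and of highest or lowest r with the member mean. Cyp2e1, Cps1, Apoe, Hp, Fga, Fgg and Hnf4a are named whatever their values, and Serpina1c is named outside these rules. Hamp and the genes most like Alb or Fabp1 were chosen after their values were seen. Alternatives were each array left out, the replicate number as a block, a filter at the median row level, the mean of a gene's rows, trended robust variance, array weights (statmod 1.5.0), quantile normalization and all rows. Promoter windows are from RefSeq, matched by symbol.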

Additional observations from a re-analysis of the deposited data

Results flagged for a closer look

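In each group of 4 arrays the gap of the highest or lowest array to its neighbour was compared with Dixon's 95% limit, which flags about 1 group in 20 by chance. Of 152 groups of values tested, 13 had an array that stood apart, against 7.6 by chance, and 8 of the 13 were in rTF replicate 3. The values share arrays and many share an array order, so these are not independent.

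In rTF replicate 3 the members Apob and Hpx were at 7.87 (the other rTF arrays 6.84 to 6.91) and 9.90 (8.90 to 8.99). The mean of the protease inhibitor list was 6.03 there (5.42 to 5.43), that of the clotting factor list 6.65 (6.07 to 6.10), and Ambp 7.03 (5.81 to 5.96). Adh1 was at 6.85 in the same array (8.33 to 8.49), the pericentral gene Rgn at 5.08 (6.82 to 6.89) and the xenobiotic receptor gene Nr1i3 at 3.36 (4.33 to 4.48).

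Elsewhere, the pericentral list mean was 5.39 in rTF replicate 1 (the other rTF arrays 5.03 to 5.06). In rCPS1 replicate 2, Apoc2 was at 6.39 (the other rCPS1 arrays 6.14 to 6.17), F10 at 9.84 (9.29 to 9.38) and Lbp, the lipopolysaccharide-binding protein gene, at 9.58 (8.50 to 8.64). In rCPS1 replicate 4, Aldh1b1, a mitochondrial aldehyde dehydrogenase gene, was at 5.01 (4.21 to 4.33).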

How the results depend on the processing

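No member and no other gene passed under any of the 15 alternative fits. With 1 array left out, the log2 difference, rCPS1 minus rTF, changed sign for 7 members: it ran from -0.19 to 0.12 for Alb, from -0.14 to 0.068 for Apoa1, from -0.28 to 0.12 for Apoa2, from -0.34 to 0.090 for Apob, from -0.39 to 0.10 for Apoh, from -0.21 to 0.18 for Hpx and from -0.24 to 0.45 for Fabp1. Ahsg (-0.48 to -0.09), Fgb (-0.70 to -0.18) and Ttr (-0.27 to -0.03) stayed below 0. With array weights Apoa2 was at 0.060. The median of the other plasma carriers ran from -0.12 to 0.16, reaching 0.16 without rTF replicate 3, and the difference of the member mean from -0.21 to -0.00086. Over all genes the replicate numbers did not pair the arrays: same-numbered deviations correlated between -0.12 and 0.03. For the members the replicate block gave smaller standard errors throughout, from 0.25 to 0.14 for Apoa2 and from 0.26 to 0.21 for Hpx. Whether same-numbered arrays share a source was not tested. With the replicate block 0 genes passed (smallest adjusted p = 0.995) and the difference of the member mean was -0.13. The enzyme median ran from 0.099 to 0.46 and the clotting factor median from -0.29 to -0.01 with 1 array left out, the values nearest 0 being those without rTF replicate 3. The cause of these shifts was not tested. The alternatives for the counts of genes closer to Alb or Fabp1, for the counts of higher intracellular genes and for the correlation of Alb with Fabp1 were chosen after seeing the data. That correlation ran from -0.85 to -0.41 with 1 array left out.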

Other observations

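Hepatocytes around the central vein and around the portal vein express different genes, and acetaminophen is activated mainly by the central ones. Of 13 measured pericentral genes 7 were higher and 6 lower with rCPS1 (median 0.01), and of 7 periportal genes 2 were higher and 5 lower (median -0.11), and none passed. Cyp2e1, the cytochrome that turns acetaminophen into its toxic product, was at 7.73, 7.94, 7.70 and 6.74 in rCPS1 replicates 1 to 4, against 8.17, 7.28, 7.64 and 6.95 in rTF replicates 1 to 4, a difference of 0.02 ± 0.30 (SE). Rgn, a calcium-binding protein gene, had the largest estimate of the pericentral list, 0.74 ± 0.43, and the low array noted above. The periportal gene Cyp2f2 differed by -0.51 ± 0.21 with an unadjusted p of 0.035 (limma adjusted p = 0.980), and Hal, the histidine-degrading enzyme gene, by -0.51 ± 0.25.

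The genes most like Fabp1 over the 8 arrays, chosen after its pattern was seen, included Agmat (r = 0.99), the steroid dehydrogenase gene Hsd17b2 (0.99), the mitochondrial fatty acid oxidation gene Hadh (0.97) and the sulfotransferase gene Sult2a8 (0.965). Those most like Alb included Lox, a collagen cross-linking enzyme gene (0.98), the plasma protease inhibitor gene Mug1 (0.965) and the fatty acid hydroxylase gene Cyp4a14 (0.95).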
